A study of Mus musculus with 11 samples.

Results

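The glial lineage genes described here are 10 named markers, of which Olig1, Olig2, Sox10, Pdgfra, Cspg4 and Cnp belong to the oligodendrocyte lineage and Gfap, Aqp4, S100b and Aldh1l1 to the astrocyte lineage. They were chosen by gene symbol, and all 10 were found among the 53801 genes counted in every library. Total RNA of mouse neural progenitor cell (NPC) cultures from E13.5 embryo brains was sequenced in 11 libraries to compare cells with and without deletion of Smg6, the gene of an endonuclease of nonsense-mediated mRNA decay. All cells were Smg6 Flox/Flox on a background of C57BL/6 mixed with 129SV, and they grew in medium with EGF and bFGF, growth factors that keep NPCs dividing. The Ctr group (embryos SMH_128, SMH_132 and SMH_133) was RosaCreER tg/+ and received no treatment. The Ctr + 4-OHT group (embryos SMH_125, SMH_126, SMH_129 and SMH_131) was RosaCreER +/+ and received 4-hydroxytamoxifen (4-OHT), the drug that activates the CreER recombinase. The Smg6-iKO group (embryos SMH_127, SMH_128, SMH_132 and SMH_133) was RosaCreER tg/+ and received 4-OHT, which induces the deletion. The labels give 1 µM 4-OHT for 3 days, whereas the published description places RNA isolation 6 days after treatment and also has 4-OHT present through 6 days of culture, so that the length of exposure is not settled here. The Rosa26 locus drives the recombinase in all cell types, so that the deletion was not directed at 1 kind of cell. Its extent in each kind of cell was not measured here. The numbers in the titles are taken here to name the embryo culture, and SMH_128, SMH_132 and SMH_133 each gave a Ctr and a Smg6-iKO library. Against Ctr, the Smg6-iKO cells differed in both 4-OHT and the deletion, and against Ctr + 4-OHT in both the recombinase and the deletion, as well as in the embryos. Within either comparison the parts of these differences cannot be told apart.

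Oligodendrocytes arise from neural progenitors through oligodendrocyte precursor cells (OPCs), whose fate depends on the transcription factors OLIG2 and SOX10 and whose growth is driven by platelet-derived growth factor acting on the receptor PDGFRA. Astrocytes arise from the same progenitors later in development, under transcription factors of the nuclear factor I (NFI) family and cytokine signals that act through the JAK-STAT pathway on genes such as Gfap. Several astrocyte genes, Aldh1l1 among them, are also active in radial glia, the progenitors from which these cultures were made.

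The libraries held from 26418249 to 33756875 gene counts, which were expressed as CPM (counts scaled to a common library total) after TMM normalization over the 11 libraries. Smg6 lay between 62.3 and 71.9 CPM in Smg6-iKO, between 66.5 and 72.3 CPM in Ctr + 4-OHT and between 69.5 and 79.4 CPM in Ctr. With the embryo as a block Smg6 fell by 0.15 against Ctr on the log2 scale (adjusted p = 0.0430, edgeR). Without the block its value was -0.17 (adjusted p = 0.148), and against Ctr + 4-OHT it was -0.06 (adjusted p = 0.703) in the same test. A count over the whole gene does not show loss of the floxed part. Esr1, of which CreER holds a part, was at 0.135 CPM on average in Ctr + 4-OHT and at 4.29 and 4.22 CPM in Ctr and Smg6-iKO, as the genotypes state. The 10 markers of neural progenitors summed to between 4588 and 5788 CPM and the 10 of neurons to between 1964 and 3217 CPM. Markers of microglia summed to at most 4.08 CPM over 10 genes and those of endothelium to at most 10.2 CPM over 8 genes. The 6 markers of meningeal fibroblasts were all detected, and their sum ranged from 277 CPM to 1529 CPM.

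All 10 glial genes were expressed in every library, at widely different levels. Per kilobase of exon, the mean level over the 11 libraries was highest for Olig1, at 138 ± 17.8 CPM per kb (SD, n = 11). Olig2 (92.3 ± 11.4 CPM per kb) and Aldh1l1 (90.2 ± 8.69 CPM per kb) followed, and their levels differed by less than their spread between libraries. A wide step separated these from Cnp (17.9 ± 3.50 CPM per kb), Sox10 (12.5 ± 3.12 CPM per kb) and Pdgfra (12 ± 1.69 CPM per kb), of which Sox10 and Pdgfra differed by less than their spread. Cspg4 (9.03 ± 1.83 CPM per kb), Gfap (7.47 ± 5.55 CPM per kb) and Aqp4 (7.09 ± 1.41 CPM per kb) lay below, each within the spread of its neighbour. S100b was lowest, at 1.21 ± 0.597 CPM per kb. Olig1, Olig2 and Aldh1l1 were thus expressed above the other 7 genes, while the transcription factor Sox10 lay below Cnp.

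**Figure D1:**
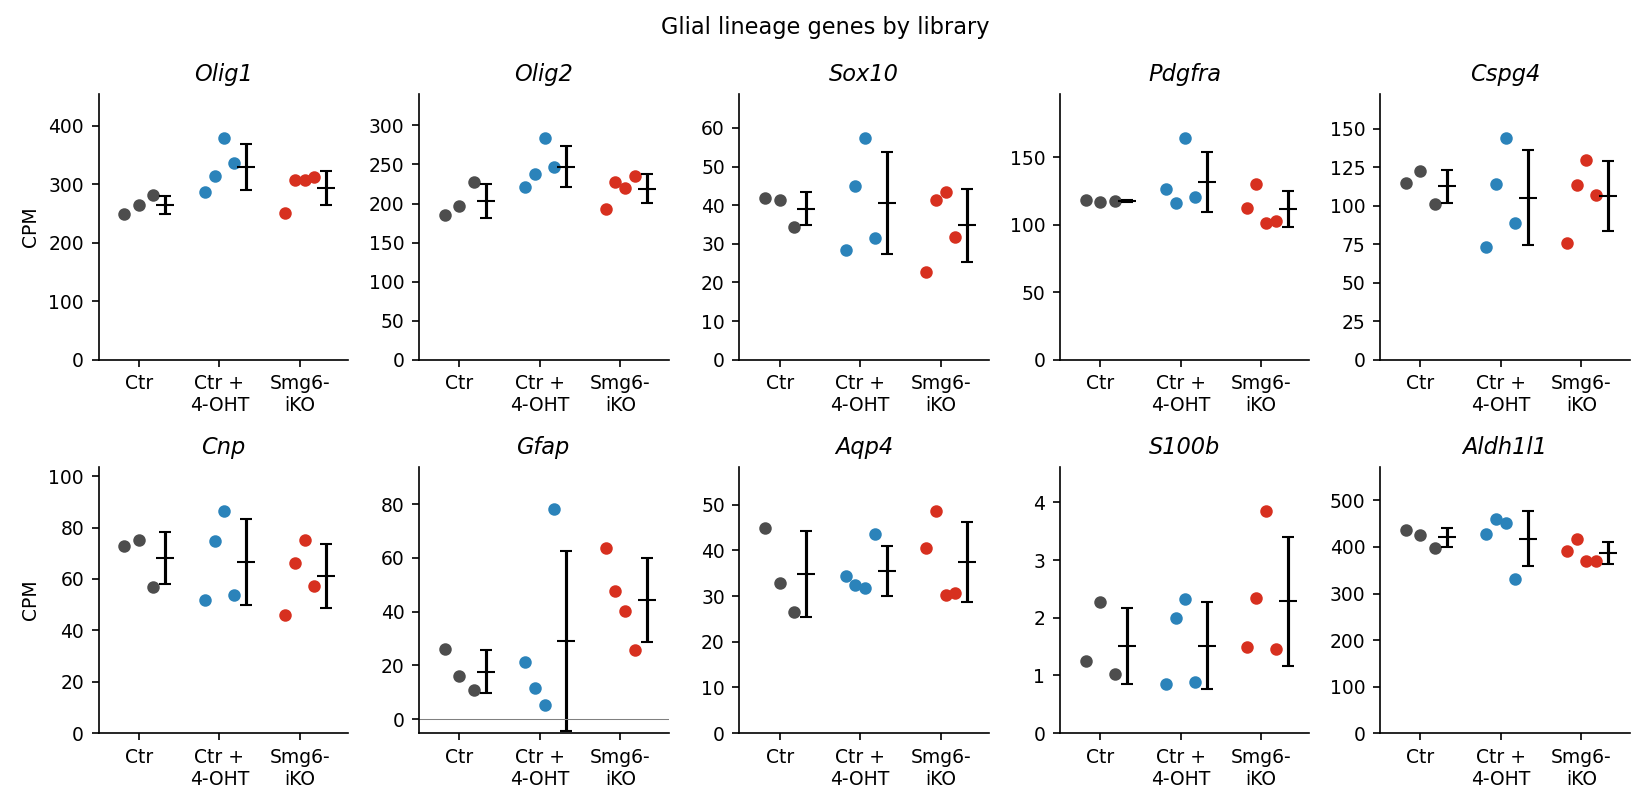
Expression in CPM of the 10 glial lineage genes in the 11 libraries, with 1 point per embryo and the group mean ± SD beside the points. The SD bar of Gfap in Ctr + 4-OHT reaches below 0 because embryo SMH_131, at 78.2 CPM, lies far above the other 3 embryos of its group.

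In Smg6-iKO against Ctr + 4-OHT, none of the 10 genes passed the test, while 1.17% of the 17558 genes tested did (edgeR's quasi-likelihood test, Benjamini-Hochberg adjusted p under 0.05 over all genes). None had an unadjusted p under 0.05 either, as 16.7% of all genes did, and the same 2 counts were 0 with DESeq2's Wald test (6.06% and 19.1% of all genes) and with limma-voom (1.11% and 16.9%). The groups overlapped for all 10 genes, whereas they did not overlap for 11% of all genes. In Smg6-iKO against Ctr, 1 of 10 genes, Gfap, passed the test, beside 9.25% of the 17974 genes tested and 4.27% that were higher. It was also the 1 gene called by DESeq2 (16.0% of all genes) and by limma-voom (8.97%). At an unadjusted p under 0.05, 1 of 10 passed in edgeR (26.9% of all genes), 1 in DESeq2 (28.5%) and 1 in limma-voom (27.0%). The groups overlapped for all 10, as they did not for 23.3% of all genes. With the embryo as a block, 4 of 10 passed, Gfap, S100b, Olig1 and Olig2, all of them higher in Smg6-iKO, beside 21.4% of all genes in either direction and 10.3% higher. Aldh1l1 was the fifth with an unadjusted p under 0.05, as 33.8% of all genes had. The block compares the libraries of the 3 shared embryos and leaves 2 residual degrees of freedom per gene, and the unpaired library of embryo SMH_127 adds nothing to its effect. In Ctr + 4-OHT against Ctr, none of the 10 passed, beside 0.221% of 17665 genes, and the count was also 0 with DESeq2 (1.03% of all genes) and limma-voom (0.198%). All 3 comparisons share libraries, so that their values for a gene are not independent.

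**Figure D2:**
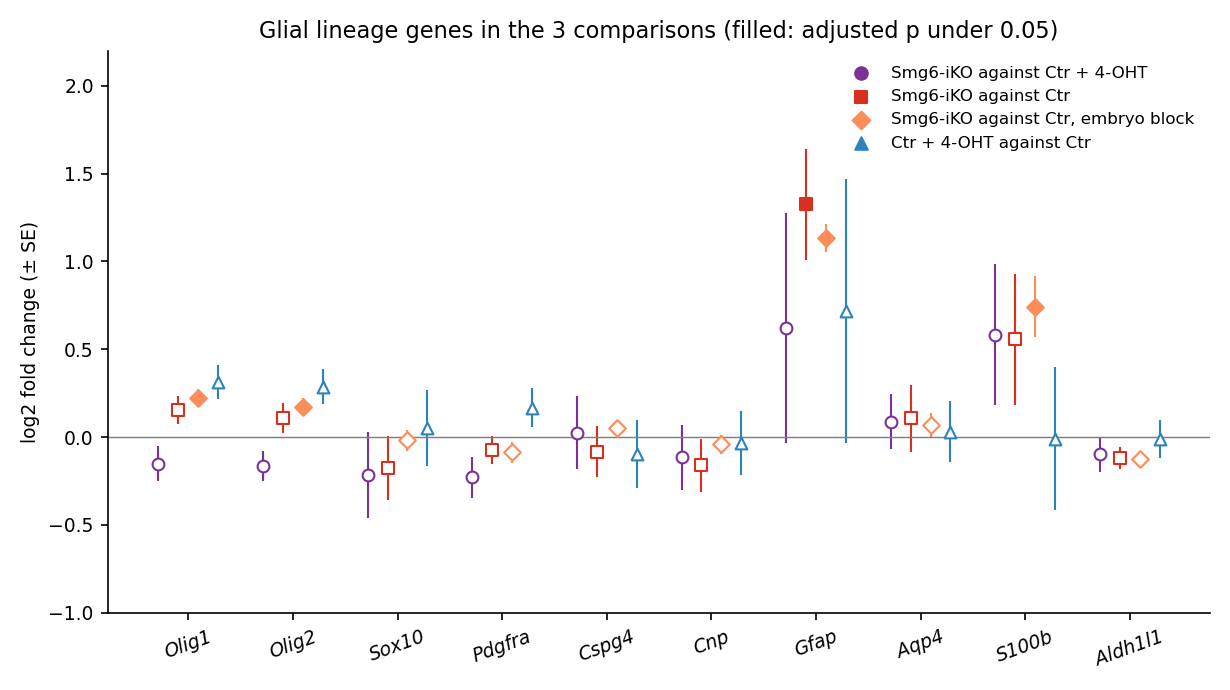
Log2 fold changes ± SE of the 10 glial lineage genes in the 3 comparisons, with the comparison of Smg6-iKO with Ctr also shown with the embryo as a block. Filled symbols mark an adjusted p under 0.05, which Gfap reaches in both fits against Ctr and S100b, Olig1 and Olig2 in the blocked fit.

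Gfap (ENSMUSG00000020932, GRCm38 chromosome 11 from 102887336 to 102900912, minus strand) encodes the intermediate filament protein of astrocytes. It was at 26.2, 16.1 and 10.6 CPM in Ctr from embryos SMH_128, SMH_132 and SMH_133. In Ctr + 4-OHT it was at 21.4, 11.5, 5.14 and 78.2 CPM in embryos SMH_125, SMH_126, SMH_129 and SMH_131. In Smg6-iKO it was at 63.6, 47.6, 40.4 and 25.7 CPM in embryos SMH_127, SMH_128, SMH_132 and SMH_133. The lowest Smg6-iKO library and the highest Ctr library overlapped narrowly, and the Ctr + 4-OHT group held both the lowest and the highest library of the study, which differed 15.2-fold. Against Ctr, Gfap rose 2.51-fold in Smg6-iKO, with a log2 fold change of 1.33 (SE 0.315, adjusted p = 0.0288, edgeR). With the embryo as a block the log2 fold change was 1.13 (SE 0.0820, adjusted p = 5.96e-08, edgeR), and within embryos SMH_128, SMH_132 and SMH_133 the ratio of Smg6-iKO to Ctr was 1.81, 2.5 and 2.42. On the log2 scale these embryos differed by 0.858, 1.32 and 1.27. The blocked test estimates the spread partly from other genes, so that its SE and p do not rest on the 3 embryos alone. A two-sided exact permutation test over the 4 and 3 libraries gave p = 0.114, where the smallest p this design allows is 0.0571. That test treats the libraries as independent and does not use the pairing of the 3 shared embryos. Against Ctr + 4-OHT the log2 fold change was 0.62 (SE 0.655, adjusted p = 0.687, edgeR), and Ctr + 4-OHT against Ctr gave 0.72 (SE 0.752, adjusted p = 0.822, edgeR). Without embryo SMH_131 these became 1.82 (adjusted p = 0.102) and -0.48 (adjusted p = 0.944) in the same test. Over the 16 alternatives the value against Ctr + 4-OHT lay between 0.26 (without SMH_129) and 1.82, with 0.36 without SMH_126, 0.39 without Smg6-iKO SMH_127 and 1.28 in limma-voom, and adjusted p was at least 0.102 in each. The call against Ctr was lost without Smg6-iKO embryo SMH_127 (log2 fold change 1.1, adjusted p = 0.0585), without Ctr embryo SMH_132 (1.25, adjusted p = 0.112) and without Ctr embryo SMH_133 (1.06, adjusted p = 0.0807). It was also lost when all 11 libraries shared one estimate of the spread (1.33, adjusted p = 0.284). Over the 20 alternatives the log2 fold change lay between 1.03 and 1.73.

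The spread of Gfap within groups, an SD of 1.11 on the log2 CPM scale, was larger than that of 99.7% of the 18123 genes kept over the 11 libraries, for which the median was 0.156. The libraries richest in Gfap were also rich in transcripts of neurons and of meningeal fibroblasts. With the summed neuron markers, log2 Gfap had a Pearson r of 0.712 and a Spearman rho of 0.711 over the 11 libraries, and r was 0.784 without the 2 libraries farthest from the median sum. The neuron sum was higher in Smg6-iKO in each shared embryo, at 2418 and 2596 CPM in SMH_128, 2135 and 2504 CPM in SMH_132 and 2375 and 2752 CPM in SMH_133. With the summed progenitor markers Gfap had an r of -0.651 (-0.394 without the 2 farthest libraries), and with the summed astrocyte and radial glia genes one of -0.431 (-0.669). The 6 fibroblast markers, led by Col3a1 and Col1a2, summed to 1529 CPM in Smg6-iKO embryo SMH_127 and to 894 CPM in Ctr + 4-OHT embryo SMH_131, the 2 libraries of highest Gfap. They summed to 313 CPM in Ctr + 4-OHT embryo SMH_129, the library of lowest Gfap. Over the 11 libraries, which share these 2 scales through normalization to the same total, the log2 sums and log2 Gfap had a Pearson r of 0.620 and a Spearman rho of 0.564, and r was 0.776 without the 2 libraries farthest from the median sum. Within embryo SMH_128 the fibroblast sum was 375 CPM in Ctr and 687 CPM in Smg6-iKO, and within embryo SMH_133 it was 539 CPM and 563 CPM. Within embryo SMH_132 it was lower in Smg6-iKO, at 376 CPM in Ctr and 277 CPM in Smg6-iKO, while Gfap was 2.5-fold higher. In bulk RNA, a change in the number of cells of a type and a change in RNA per cell cannot be told apart.

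**Figure D3:**
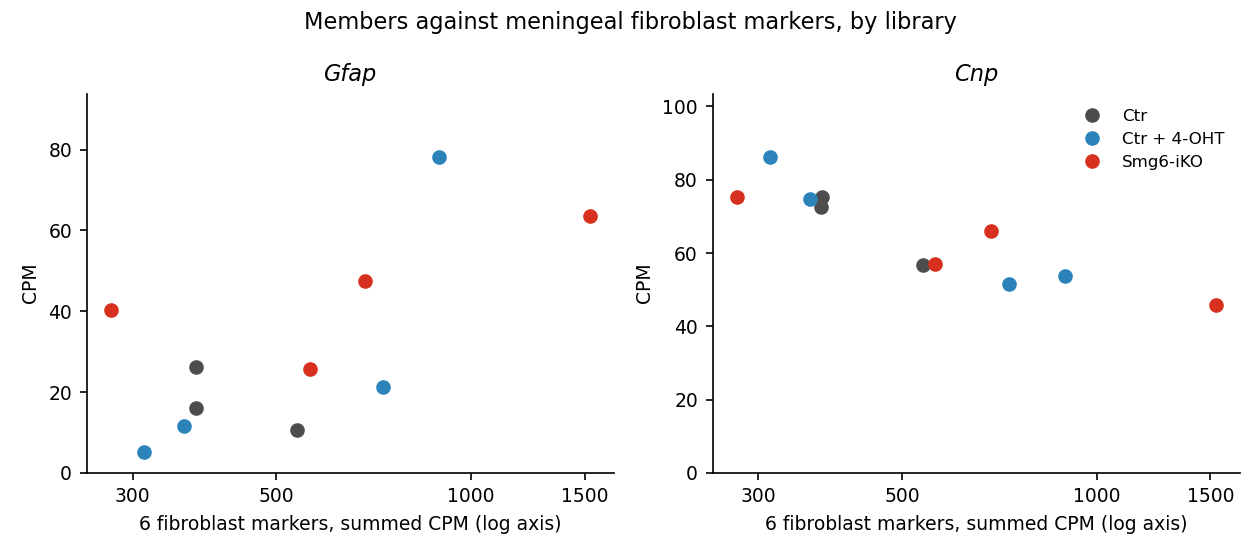
Expression in CPM of Gfap and of Cnp in each library against the summed CPM of 6 meningeal fibroblast markers, on a log axis. Gfap is highest in the 2 libraries with the largest sums, 1529 and 894 CPM. Cnp is at 75.2 CPM at the lowest sum of 277 CPM, highest with 86.3 CPM at 313 CPM and lowest with 45.9 CPM at 1529 CPM.

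S100b (ENSMUSG00000033208, chromosome 10 from 76253853 to 76261159, plus strand) encodes a calcium-binding protein of astrocytes that is also made by oligodendrocyte precursors. With between 23 and 107 counts per library it was the least expressed of the 10 genes. It was at 1.25, 2.27 and 1.03 CPM in the Ctr libraries of embryos SMH_128, SMH_132 and SMH_133 and at 2.35, 3.85 and 1.46 CPM in the Smg6-iKO libraries of the same embryos, with 1.49 CPM in Smg6-iKO embryo SMH_127. The 4 libraries of Ctr + 4-OHT held 0.856, 1.99, 2.33 and 0.883 CPM, so that all 3 groups overlapped. Each shared embryo was higher in Smg6-iKO, by 1.88, 1.69 and 1.41 times. The blocked log2 fold change was 0.74 (SE 0.173, adjusted p = 0.00529, edgeR), against 0.56 without the block (SE 0.374, adjusted p = 0.370, edgeR) and 0.58 in Smg6-iKO against Ctr + 4-OHT (SE 0.402, adjusted p = 0.505, edgeR). Leaving out 1 library moved the unblocked values between 0.19 (without Smg6-iKO SMH_132) and 0.97 (without Ctr SMH_132) against Ctr, and between 0.21 (without Smg6-iKO SMH_132) and 0.88 (without SMH_129) against Ctr + 4-OHT. Dip2a, which lies across S100b on the other strand and has many more counts, shares no exon base with it, and its blocked log2 fold change was -0.02 (adjusted p = 0.838, edgeR).

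The promoters of Gfap and S100b are shown because these 2 genes had the largest log2 fold changes of the 10 in both comparisons with Smg6-iKO, though not in Ctr + 4-OHT against Ctr. They come from RefSeq on GRCm38.p6, in the orientation of the gene, from 250 bases before to 50 bases after the annotated start. Capitals mark matches on either strand to the STAT motif TTCNNNGAA or to TTGGC, the core of the NFI site. The Gfap window is chr11:102897151-102897450 on the minus strand, and that of S100b is chr10:76253586-76253885 on the plus strand. The RefSeq start of Gfap thus lies inside the counted gene, which begins at 102900912 on that strand.
Gfap: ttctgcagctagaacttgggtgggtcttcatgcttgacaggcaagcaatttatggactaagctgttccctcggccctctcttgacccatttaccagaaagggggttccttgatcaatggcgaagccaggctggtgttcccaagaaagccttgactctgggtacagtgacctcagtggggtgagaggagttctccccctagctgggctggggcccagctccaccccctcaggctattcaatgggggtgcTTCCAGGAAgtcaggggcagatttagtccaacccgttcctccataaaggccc
S100b: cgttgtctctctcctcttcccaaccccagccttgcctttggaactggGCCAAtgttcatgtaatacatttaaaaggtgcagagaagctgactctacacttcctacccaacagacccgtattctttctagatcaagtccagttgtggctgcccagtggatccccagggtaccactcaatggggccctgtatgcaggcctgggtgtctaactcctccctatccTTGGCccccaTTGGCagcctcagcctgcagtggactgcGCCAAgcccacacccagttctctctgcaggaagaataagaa

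The Gfap window held 1 STAT match, across the RefSeq start, and no NFI core, whereas the S100b window held 4 NFI cores and no STAT match. A STAT match was present in 8.3% and an NFI core in 46.7% of 32851 RefSeq promoter windows of the same length. Of the 7 glial genes with a promoter entry, 1 held a STAT match, 4 held an NFI core and 1, Olig2, held the SOX motif AACAAT, which 10.7% of all windows held. No capitals overlapped between motifs, and the motifs were picked after the expression values were known.

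Aqp4 and Aldh1l1, the other astrocyte genes, did not pass in any of the 3 comparisons. Aqp4, the water channel of astrocyte endfeet, was at 45.0, 32.9 and 26.5 CPM in Ctr and at 40.5, 48.5, 30.2 and 30.7 CPM in Smg6-iKO, and it lay between 31.9 and 43.6 CPM in Ctr + 4-OHT. Its groups overlapped throughout, and its log2 fold changes were 0.11 (SE 0.191) against Ctr and 0.09 (SE 0.157) against Ctr + 4-OHT. Aldh1l1 (ENSMUSG00000030088, chromosome 6 from 90486427 to 90600203), a folate enzyme used as a marker of all astrocytes, was at 438, 426 and 398 CPM in Ctr and at 392, 417, 369 and 370 CPM in Smg6-iKO. In Ctr + 4-OHT it was at 428, 460, 451 and 332 CPM, with the lowest value of the study in embryo SMH_131, where Gfap was highest. It was the 1 gene of the 10 that was lower in Smg6-iKO within each of the 3 shared embryos, at 0.954, 0.865 and 0.929 times the Ctr level. Its log2 fold change against Ctr was -0.12 (SE 0.0621, adjusted p = 0.241, edgeR) and with the block -0.13 (SE 0.0497, adjusted p = 0.0760, edgeR). With the block and a correction for gene length it passed at -0.17 (adjusted p = 0.0199, edgeR), where Olig2 no longer did and 22.7% of all genes passed. It also passed at -0.16 with the block without SMH_128 (adjusted p = 0.0168, edgeR), and not without SMH_132 or SMH_133. Beside the single gene lower in every shared embryo, 4 of the 10 were higher in every one, while 25.9% of all genes were lower and 25.8% higher throughout.

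Olig1 and Olig2, neighbouring transcription factor genes that specify the oligodendrocyte lineage, changed little and together. Olig1 (ENSMUSG00000046160, chromosome 16 from 91269772 to 91271933) was at 249.9, 264 and 281 CPM in Ctr and at 251, 308, 307 and 312 CPM in Smg6-iKO. In Ctr + 4-OHT it was at 286, 315, 379 and 337 CPM, so that every library of this group lay above every Ctr library. Olig2 (ENSMUSG00000039830, chromosome 16 from 91225550 to 91228677) was at 185, 197 and 227 CPM in Ctr, at 221, 238, 284 and 246 CPM in Ctr + 4-OHT and at 193, 228, 219.8 and 235.5 CPM in Smg6-iKO. Its groups overlapped in all comparisons. In Smg6-iKO against Ctr the blocked log2 fold change was 0.22 for Olig1 (SE 0.0498, adjusted p = 0.00394, edgeR) and 0.17 for Olig2 (SE 0.0533, adjusted p = 0.0292, edgeR). Within the shared embryos, Olig1 was 1.23, 1.16 and 1.11 times and Olig2 1.23, 1.12 and 1.04 times the Ctr level. Without the block neither passed, at 0.15 (adjusted p = 0.253) and 0.11 (adjusted p = 0.445) in the same test. Without embryo SMH_128 the blocked value of Olig2 was 0.10 (adjusted p = 0.124, edgeR). That fit called 28.1% of all genes, against 14.6% without SMH_132 and 9.62% without SMH_133, where Olig2 passed.

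In Ctr + 4-OHT, which lacks the deletion, both Olig genes also lay above Ctr on average, without passing the test. In Ctr + 4-OHT against Ctr, Olig1 had a log2 fold change of 0.31 (SE 0.0959, unadjusted p = 0.00878, adjusted p = 0.399, edgeR) and Olig2 of 0.29 (SE 0.0997, unadjusted p = 0.0176, adjusted p = 0.471, edgeR). These 2 were the members with an unadjusted p under 0.05 in that comparison, beside 8.28% of all genes. The same count was 2 with DESeq2 (7.85% of all genes) and 2 with limma-voom (8.28%). Olig1 was also the 1 gene of the 10 whose groups did not overlap there, beside 8.71% of all genes, with an exact two-sided permutation p of 0.0571, the smallest that 4 and 3 libraries allow. Against Ctr + 4-OHT, both genes were lower in Smg6-iKO on average, with log2 fold changes of -0.15 (SE 0.0981, adjusted p = 0.478, edgeR) for Olig1 and -0.17 (SE 0.0877, adjusted p = 0.377, edgeR) for Olig2. These became -0.0801 and -0.0956 without SMH_129, and -0.22 and -0.223 without SMH_125. The ratio of Olig1 to Olig2 CPM stayed between 1.24 and 1.39 in all 11 libraries, and 41094 bases separate the 2 genes.

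**Figure D4:**
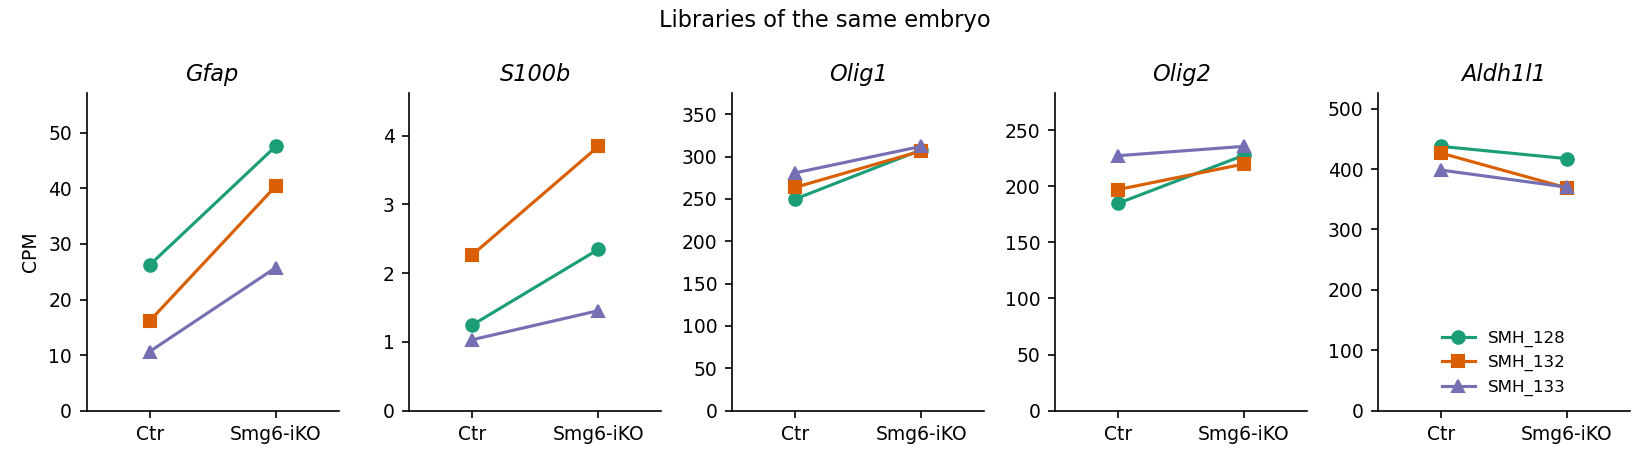
Expression in CPM in the Ctr and the Smg6-iKO library of each shared embryo, joined by a line. Gfap, S100b, Olig1 and Olig2 are higher in Smg6-iKO in all 3 embryos, with ratios of at most 2.5 for Gfap and 1.23 for Olig1, and Aldh1l1 is lower in all 3.

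Sox10, Cspg4 and Cnp, which mark cells committed to the oligodendrocyte lineage, did not pass in any comparison. Sox10 (ENSMUSG00000033006, chromosome 15 from 79154908 to 79165240), the transcription factor that maintains the lineage, was at 41.9, 41.3 and 34.3 CPM in Ctr, at 28.5, 44.9, 57.4 and 31.6 CPM in Ctr + 4-OHT and at 22.8, 41.3, 43.3 and 31.6 CPM in Smg6-iKO. Cspg4 (ENSMUSG00000032911, chromosome 9 from 56865033 to 56899870), which encodes the NG2 proteoglycan of OPCs, was at 115, 123 and 101 CPM in Ctr, at 73.5, 114.5, 144 and 88.9 CPM in Ctr + 4-OHT and at 75.5, 114, 129.5 and 107 CPM in Smg6-iKO. Cnp (ENSMUSG00000006782, chromosome 11 from 100574904 to 100591729), an enzyme of oligodendrocyte membranes and myelin, was at 72.7, 75.3 and 56.7 CPM in Ctr, at 51.7, 74.8, 86.3 and 53.8 CPM in Ctr + 4-OHT and at 45.9, 66.1, 75.2 and 57.1 CPM in Smg6-iKO. The same libraries were high or low for all 3 genes: Ctr + 4-OHT embryo SMH_129 was highest for each, and Smg6-iKO embryo SMH_127 was lowest for Sox10 and Cnp. The log2 fold changes of Smg6-iKO against Ctr were -0.18 (SE 0.181) for Sox10, -0.08 (SE 0.145) for Cspg4 and -0.16 (SE 0.150) for Cnp, and with the block -0.02 (SE 0.0607), 0.05 (SE 0.0470) and -0.04 (SE 0.0526). Without Smg6-iKO embryo SMH_127 the unblocked values were -0.0161, 0.0497 and -0.0449. Leaving out another library moved them as low as -0.298, -0.192 and -0.281. Dnajc7, on the other strand of Cnp, covers 4.23% of the exon bases of Cnp with its own exons, and the reads were counted by strand.

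Pdgfra (ENSMUSG00000029231, chromosome 5 from 75152292 to 75198215), the receptor through which PDGF acts on OPCs, was nearly constant in Ctr at 118, 117 and 117 CPM. It was at 126.3, 116, 164 and 120 CPM in Ctr + 4-OHT and at 112, 130.0, 101 and 103 CPM in Smg6-iKO, so that the groups overlapped. Its log2 fold change was -0.07 (SE 0.0810) against Ctr and -0.23 (SE 0.116, adjusted p = 0.353, edgeR) against Ctr + 4-OHT. Leaving out 1 library moved these between -0.157 and -0.0309 against Ctr and between -0.316 and -0.11 (without SMH_129) against Ctr + 4-OHT. With the block the value against Ctr was -0.09 (SE 0.0601, adjusted p = 0.338, edgeR), and within the shared embryos Pdgfra was 1.10, 0.864 and 0.875 times the Ctr level. Without embryo SMH_128 the blocked fit, with 1 residual degree of freedom, called it lower at -0.20 (adjusted p = 2.41e-04, edgeR). Among the 8 genes other than Gfap and S100b, the largest log2 fold change of the main edgeR fits in the 3 comparisons was 0.314 in either direction. With 1 library left out, Olig1 and Olig2 reached 0.38 in Ctr + 4-OHT against Ctr.

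The 10 genes fell into sets that varied together between libraries of one group. The deviations of log2 CPM from the group means correlated over the 11 libraries with r = 0.975 between Sox10 and Cnp, 0.973 between Sox10 and Cspg4 and 0.961 between Cspg4 and Cnp. S100b went with this set (r = 0.914 with Cnp, 0.854 with Sox10 and 0.848 with Cspg4) rather than with Gfap (r = -0.493). Olig1 and Olig2 formed a pair (r = 0.944) and correlated less with the set, Olig1 at 0.766 with Cspg4, 0.697 with Sox10 and 0.576 with Cnp, and Olig2 at 0.599, 0.529 and 0.381. Gfap correlated with Aqp4 (r = 0.670) and negatively with all 8 other genes, down to -0.623 for Aldh1l1. Pdgfra correlated with no other member above 0.458. These values share library preparation, depth and normalization, and embryos SMH_128, SMH_132 and SMH_133 each enter with a Ctr and a Smg6-iKO library. They are given as a description.

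**Figure D5:**
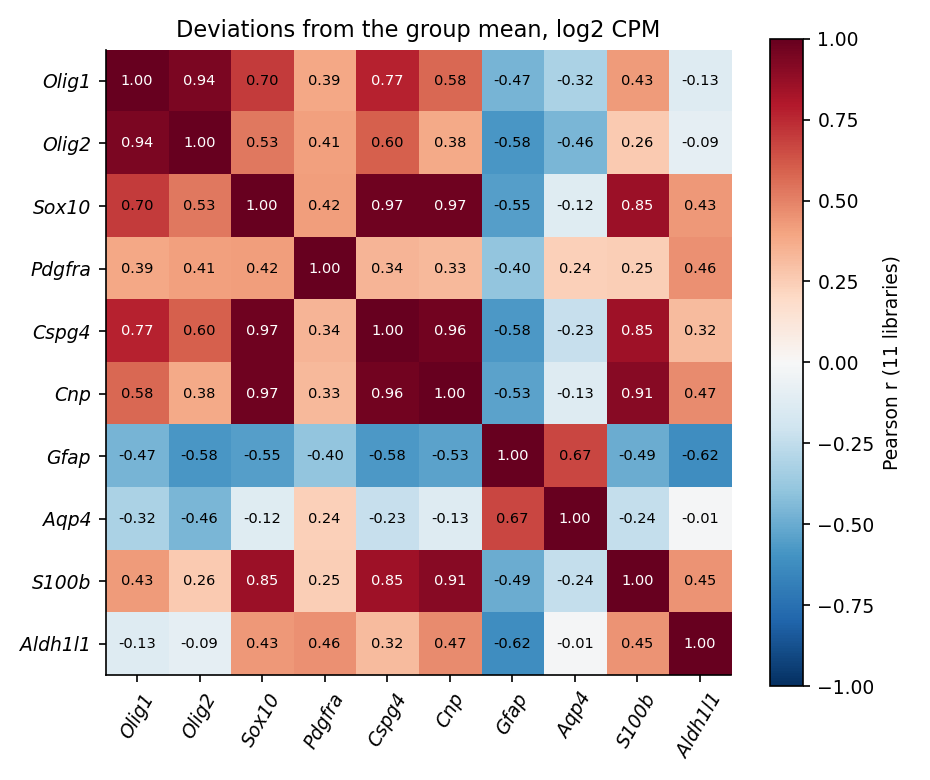
Pearson r between the 10 glial lineage genes over 11 libraries, computed on deviations of log2 CPM from the mean of each group. Sox10, Cspg4, Cnp and S100b form a block with r between 0.848 and 0.975, and the row of Gfap is negative except for Aqp4 (0.670).

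The set of Sox10, Cspg4 and Cnp varied with OPC and progenitor markers and against markers of fibroblasts and neurons. With the summed OPC markers, log2 values over the 11 libraries had a Pearson r of 0.802 for Cnp, 0.728 for Sox10 and 0.740 for Cspg4. Without the 2 libraries farthest from the median OPC sum, r was 0.803, 0.737 and 0.716. With the summed meningeal fibroblast markers, log2 values over the 11 libraries had a Pearson r of -0.910 for Cnp (Spearman rho -0.882), -0.874 for Sox10 (rho -0.909) and -0.865 for Cspg4 (rho -0.891). Without the 2 libraries farthest from the median sum, r was -0.886, -0.805 and -0.799. For deviations from the group means, the corresponding r with the summed neuron markers was -0.864, -0.871 and -0.907, and with the summed progenitor markers it was 0.764, 0.822 and 0.775. For the log2 values themselves, r with the progenitor sum was 0.703, 0.731 and 0.647, and 0.50, 0.53 and 0.41 without the 2 farthest libraries. Pdgfra, which fibroblasts also express, had an r of -0.104 with the fibroblast sum. None of the 6 fibroblast markers passed in any comparison without the block, and 1 of the 6, Col1a1, named after its values were seen, passed with it (log2 fold change 0.26 against Ctr, adjusted p = 0.0289, edgeR), beside 10.3% of all genes higher in that fit. Their median log2 fold change was 0.70 against Ctr and 0.424 against Ctr + 4-OHT, with all 6 above 0 in both. It was 0.302 in Ctr + 4-OHT against Ctr, and 0.00438 in Smg6-iKO against Ctr with the block. What part the mixture of cells had in the values of the glial genes was not tested.

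Among 14829 genes with a mean of at least 1 CPM, the genes most like each member over the 11 libraries, by Pearson r of log2 CPM, were mostly no members. For Gfap they were Serpina3n (r = 0.969), Hrk (0.968) and Gabra2 (0.935). For Sox10 they were Repin1 (0.978), Cnp (0.972) and Efs (0.954), for Cnp they were Zfp488 (0.973), Sox10 (0.972) and Lims2 (0.961), and for Cspg4 they were Plxnb3 (0.981), Smoc1 (0.949) and Zfp488 (0.946). Olig1 was most like Olig2 (0.968), Shc3 (0.927) and Rassf3 (0.911), and Olig2 was most like Olig1, Rassf3 (0.944) and Fyn (0.893). For Aldh1l1 they were Vldlr (0.968), Kdm3a (0.965) and Jmjd6 (0.932), for Aqp4 Clu, Slc5a3 and Atp1a4 (0.902 to 0.903), for S100b Stard9 (0.954), Gcfc2 (0.937) and Pdcd6ip (0.935), and for Pdgfra Acsl5 (0.921), Snx6 (0.913) and Ccdc58 (0.911).

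Other genes of the oligodendrocyte lineage were tested from fixed lists, none of whose members passed against Ctr + 4-OHT. Of 13 tested regulators of the lineage, 2 fell against Ctr: Hes5, a Notch effector that holds progenitors undifferentiated, by 1.28 on the log2 scale (SE 0.155, adjusted p = 0.00186, edgeR) and Sox8, a relative of Sox10, by 0.39 (SE 0.106, adjusted p = 0.0450, edgeR), beside 4.98% of all genes that were lower. Leaving out 1 library gave between 1 gene (without Smg6-iKO embryo SMH_133) and 3 (without Smg6-iKO embryo SMH_127). The median log2 fold change of these regulators was -0.10, beside 0.01 for all genes. Of 11 tested OPC markers none passed, with Ptprz1 at -0.16 (SE 0.0806) and Epn2 at 0.12 (SE 0.0789). With the block, 4 of the 11 rose, namely Gpr17, Tnr, Epn2 and Lhfpl3 (0.18 to 0.36), and Ptprz1 fell by 0.16. Of 12 tested myelin and mature oligodendrocyte genes none passed without the block and 5 rose with it, beside 10.3% of all genes higher with the block. Among these were Mbp, a main protein of myelin, with a blocked log2 fold change of 0.56 (SE 0.0764, adjusted p = 5.59e-05, edgeR), and Mag, a myelin adhesion protein, with 1.21 (SE 0.239, adjusted p = 0.00161, edgeR). Enpp6 and Bcas1 were also among them, and Mag and Enpp6, like the OPC markers that rose other than Epn2, were named after their values were seen. Mbp was at 15.0, 19.3 and 13.3 CPM in the Ctr libraries and at 19.7, 30.0 and 20.9 CPM in the Smg6-iKO libraries of embryos SMH_128, SMH_132 and SMH_133. Group means in Ctr, Ctr + 4-OHT and Smg6-iKO were 15.88, 19.17 and 21.65 CPM for Mbp. For Mag they were 0.594, 0.992 and 1.097 CPM, so that its counts were low. Of 6 genes of PDGF ligands and receptors none passed without the block, with Pdgfa at 0.14 (SE 0.0981) against Ctr, and with it Pdgfrb fell by 0.41 (SE 0.102, adjusted p = 0.00864, edgeR), beside 11.2% of all genes lower in that fit. Pdgfrb is also on the list of pericyte and mural markers.

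Among other genes of astrocytes and radial glia, those that passed against Ctr without the block were lower in Smg6-iKO. Of 11 regulators of astrocyte fate, 2 fell against Ctr without the block, beside the same 4.98%, Nfia by 0.29 (SE 0.0710, adjusted p = 0.0300, edgeR) and Nfib by 0.28 (SE 0.0736, adjusted p = 0.0391, edgeR), and 8 fell with it, beside 11.2% of all genes lower with the block. Neither passed without Smg6-iKO embryo SMH_132. Of 24 astrocyte and radial glia genes, 6 fell and none rose without the block, beside 4.98% of all genes lower, and with it 16 fell and 1, Tnc, named after its values were seen, rose. Between 3 genes (without Ctr embryo SMH_128) and 10 (without Ctr embryo SMH_133) passed when 1 library was left out. The falls included Glul, glutamine synthetase, by 0.53 (SE 0.0526, adjusted p = 6.03e-04, edgeR), Cst3, cystatin C, by 0.79 (SE 0.0926, adjusted p = 0.00158, edgeR), Mfge8 by 0.99 (SE 0.130, adjusted p = 0.00268, edgeR) and Apoe, the main lipid carrier of the brain, by 1.08 (SE 0.231, adjusted p = 0.0190, edgeR). The call of Apoe was lost without Ctr SMH_128 or SMH_132, with adjusted p up to 0.0763. Apoe was at a mean of 422.5 CPM in Ctr, 171 CPM in Ctr + 4-OHT and 199 CPM in Smg6-iKO, and Mfge8 at 791, 472 and 398 CPM. In Ctr + 4-OHT against Ctr, Apoe had a log2 fold change of -1.31 (adjusted p = 0.113, edgeR) and Mfge8 of -0.74 (adjusted p = 0.277, edgeR). The median log2 fold change of this list was -0.25 against Ctr and -0.14 against Ctr + 4-OHT, where none of 23 tested passed. In Ctr + 4-OHT against Ctr the median was -0.22, with 19 of 24 genes below 0, and Cst3 fell by 0.58 (SE 0.0698, adjusted p = 0.0107, edgeR). This call was lost without Ctr + 4-OHT SMH_126 and without Ctr SMH_128 or SMH_132, with adjusted p up to 0.0748.

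Of 28 genes of gliogenic cytokine, BMP and SHH signalling, 3 rose and 5 fell against Ctr, beside 4.27% of all genes higher and 4.98% lower. The 3 that rose were Osmr, the oncostatin M receptor, by 1.58 (SE 0.421, adjusted p = 0.0424, edgeR), the cytokine Lif by 0.79 (SE 0.210, adjusted p = 0.0429, edgeR) and Socs3, an inhibitor of JAK-STAT signalling, by 0.45 (SE 0.0987, adjusted p = 0.0206, edgeR). Osmr was at 1.77, 1.44 and 1.30 CPM in the Ctr libraries of embryos SMH_128, SMH_132 and SMH_133 and at 4.14, 2.30 and 2.85 CPM in their Smg6-iKO libraries, and at 8.60 CPM in Smg6-iKO embryo SMH_127, the library with the highest fibroblast sum. In Ctr + 4-OHT it was at 1.86, 1.11, 0.614 and 4.59 CPM, so that SMH_131, which carries no CreER transgene, lay above 3 of the 4 Smg6-iKO libraries. With the block, which does not use that library, its log2 fold change was 1.03 (SE 0.167, adjusted p = 2.96e-04, edgeR). Lifr, another receptor of the list, was at -0.16 (SE 0.0656, adjusted p = 0.137, edgeR). The 5 that fell were receptors and effectors of FGF, BMP and SHH signals, Fgfr2 by 0.46 (SE 0.0712, adjusted p = 0.00557, edgeR), Bmpr1b by 0.50 (SE 0.0946, adjusted p = 0.0119, edgeR), Gli3 by 0.30 (SE 0.0653, adjusted p = 0.0196, edgeR), Ptch1 and Smo. With the block 4 rose and 7 fell, beside 10.3% and 11.2% of all genes, and without Ctr embryo SMH_128 only 1 of the 28 passed in the unblocked test. Osmr, Lif, Ptch1 and Smo were named after their values were seen. Against Ctr + 4-OHT none of the 28 passed, with Socs3 at 0.14 (SE 0.112).

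Of the marker lists of other cells, 7 of 10 progenitor genes fell against Ctr, beside 4.98% of all genes, among them Prom1 by 0.54 (SE 0.0933), Sox1 by 0.31 (SE 0.0632) and Pax6 by 0.45 (SE 0.0919), with adjusted p between 0.00806 and 0.0166 (edgeR), and 2 of the 10 passed without Ctr embryo SMH_128. The progenitor list shares Hes5 with the oligodendrocyte regulators and Fabp7 with the astrocyte and radial glia genes, so that these lists are not separate. The median log2 fold change of the progenitor list was -0.31 against Ctr, -0.25 in Ctr + 4-OHT against Ctr (9 of 10 genes below 0) and -0.14 in Smg6-iKO against Ctr + 4-OHT. That of the neuron list was 0.28, 0.22 (10 of 10 above 0) and 0.06, and no gene of either list passed in the comparisons with Ctr + 4-OHT. Of 10 neuron genes, Gap43 rose by 0.40 (SE 0.106, adjusted p = 0.0428, edgeR), and 6 rose with the block, beside 4.27% and 10.3% of all genes. The call of Gap43 held only without Smg6-iKO SMH_132 when 1 library was left out, with adjusted p up to 0.147, and between 0 and 4 neuron genes passed. Of 7 tested mural genes, Acta2 and Tagln fell by 1.74 (SE 0.303) and 1.35 (SE 0.213), and Tagln also fell in Ctr + 4-OHT against Ctr, by 1.40 (SE 0.187, adjusted p = 0.0207, edgeR). That last call was lost without Ctr + 4-OHT SMH_125 or SMH_126 and without each Ctr library, with adjusted p up to 0.158. Of 3 tested neural crest and Schwann genes, Dhh rose by 0.47 (SE 0.108, adjusted p = 0.0255, edgeR), a call lost without Smg6-iKO SMH_127 or SMH_133 and without Ctr SMH_132 or SMH_133, with adjusted p up to 0.11. None of 7 tested endothelial genes, led by Kdr and Pecam1, and not the 1 tested microglial gene, Tmem119, passed without the block, and Aif1, a defining marker of microglia, was at a mean of 0.257 to 0.259 CPM in the 3 groups.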

How the data were processed

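Gene-level counts of total RNA (TruSeq Stranded Total RNA, RiboZero Gold) were analysed for 11 libraries. The authors aligned the reads with STAR 2.5.4b to GRCm38, after bcl2fastq 1.8.4, and deposited counts of uniquely mapped reads per Ensembl gene from featureCounts 1.5.0 in reverse-stranded mode, without reads that overlapped several genes. Totals per library ran from 26418249 to 33756875 counts, and a symbol was matched to 53620 of the 53801 genes through a table of gene names. No pair of libraries of 1 group agreed within sampling noise.

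Groups followed the labels. Each comparison used only its own libraries, with filterByExpr, TMM normalization and the quasi-likelihood test of edgeR 4.0.16 (limma 3.58.1, R 4.3.3) on the deposited counts, and p-values were adjusted by Benjamini-Hochberg over all genes tested, with a threshold of 0.05. CPM for description used a common TMM normalization over the 11 libraries. Correlations used log2 CPM with a prior count of 2, except those with summed markers, which used no prior count. Exact permutation tests were run with scipy 1.17.1 (Python 3.11.15, pandas 2.3.3), and figures with matplotlib 3.10.9. The fits were tested on simulated data first. Alternatives were DESeq2 1.42.0, limma-voom, other normalizations and filters, all 11 libraries in one fit, a correction for gene length, an embryo block and leaving out each library. The blocked fits without 1 shared embryo were added after the data had been seen.

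The titles carry a number, and the design text says that the Ctr cells are the same as the Smg6-iKO cells. The numbers SMH_128, SMH_132 and SMH_133 each gave a Ctr and a Smg6-iKO library. Their deviations from the group means correlated with r of 0.328 to 0.425 within an embryo (3 pairs) and of -0.265 to 0.0948 between embryos (9 pairs), so the numbers pair the libraries.

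The members and gene lists were chosen with earlier results of these data known. From each list, the genes that passed in a comparison were named, at most 4 per list and comparison by adjusted p, or the 2 of highest mean CPM where none passed, and for each member the 3 genes of highest correlation. Each library is 1 culture, and embryos SMH_128, SMH_132 and SMH_133 each gave a Ctr and a Smg6-iKO culture. Values over the 11 libraries, and Smg6-iKO against Ctr without the block, treat these as separate. Intervals and tests cover the spread between cultures, which edgeR, DESeq2 and limma estimate partly from other genes.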

Additional observations from a re-analysis of the deposited data

Results flagged for a closer look

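Of 20 sets of 4 libraries (the 10 glial genes in Ctr + 4-OHT and in Smg6-iKO), 1 held a library that stood apart by Dixon's criterion. It was Olig1 in Smg6-iKO, where embryo SMH_127 was at 250.9 CPM and the other 3 embryos lay between 306.6 and 312.1 CPM. Chance alone gives about 1 in 20 such sets. Embryo SMH_127 has no Ctr library and was also the library with the highest sum of fibroblast markers. Whether these are connected was not tested.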

How the results depend on the processing

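Against Ctr, the number of glial genes that passed was 1 without a block, 4 with the replicate block, 4 with the replicate block and the length correction, 5, 4 and 4 with the replicate block without embryo SMH_128, SMH_132 and SMH_133, and 0 with all 11 libraries in one fit. It lay between 0 and 1 when 1 library was left out. Over all genes, the replicate block raised the number that passed from 1663 to 3854, or to 4076 with the length correction, and to 5164, 2644 and 1742 without embryo SMH_128, SMH_132 and SMH_133, the last close to the number without a block. No filter gave 2714, all 11 libraries in one fit 796, and leaving out 1 library 570 to 2524. Against Ctr + 4-OHT the 206 genes became 418 without a filter, 484 with all 11 libraries, 873 with DESeq2 and 66 to 174 without 1 library. In Ctr + 4-OHT against Ctr the 39 became 198, 60, 169 and 5 to 54 under the same changes. No paired analysis was possible for the comparisons with Ctr + 4-OHT because that group shares no embryo with the others.

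Reversals were seen only in small log2 fold changes that did not pass, apart from Gfap in Ctr + 4-OHT against Ctr. Cspg4 became -0.041 against Ctr + 4-OHT with the length correction. Against Ctr it became 0.050 with the replicate block, 0.018 with the block and length correction and 0.080, 0.035 and 0.044 with the block without embryo SMH_128, SMH_132 and SMH_133. Against Ctr, Sox10 became 0.036 with the block without embryo SMH_133 and Cnp 0.0033 without embryo SMH_128. S100b in Ctr + 4-OHT against Ctr became 0.013 with the length correction. Without 1 library, values against Ctr + 4-OHT ranged from -0.12 to 0.21 for Cspg4, -0.24 to 0.029 for Cnp and -0.064 to 0.20 for Aqp4. Against Ctr they ranged from -0.19 to 0.050 for Cspg4 and -0.060 to 0.34 for Aqp4. In Ctr + 4-OHT against Ctr they ranged from -0.16 to 0.20 for Sox10, -0.29 to 0.046 for Cspg4, -0.18 to 0.077 for Cnp, -0.48 to 1.11 for Gfap, -0.13 to 0.26 for Aqp4, -0.31 to 0.41 for S100b and -0.060 to 0.092 for Aldh1l1. The cause was not tested.

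The split of all calls against Ctr was 767 higher and 896 lower, 1089 and 694 with upper-quartile normalization and 550 and 1405 with the length correction. Against Ctr + 4-OHT, 73 of 206 calls were lower, 66 of 223 with upper-quartile normalization and 156 of 250 with the length correction. Low counts limit S100b and Mag, and 2 residual degrees of freedom limit the blocked fit.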
